A study of Homo sapiens with 12 samples.

Results

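Polysomal RNA of STAU1-knockout cells was compared with polysomal RNA of wild-type cells at single poly(A) sites, the positions where messenger RNAs end. The members were all poly(A) sites of the fractionation table with at least 50 reads in each of the 2 polysome libraries. These were 5650 of 189010 listed sites, of which 5591 lay on nuclear chromosomes, 58 on the mitochondrial genome and 1 on an unplaced sequence. The members held 86.4% of the reads of the knockout polysome library and 87.5% of those of the wild-type polysome library.

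Staufen1 (STAU1) is a double-stranded RNA-binding protein that recognises base-paired structures, many of them in 3' untranslated regions. It is known for a decay pathway that removes bound messenger RNAs, for RNA transport, and for association with ribosomes. Polysomes are messenger RNAs carrying several ribosomes, so polysomal RNA is a readout of the pool being translated. Many genes have several poly(A) sites, and a messenger RNA ending at the distal site has the longer 3' untranslated region; 3'READS+ sequences the RNA next to the poly(A) tail and so counts each of these ends.

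The knockout cells were a STAU1-KO clone (C8) of HEK293T, a human embryonic kidney cell line, made by paired nicking with a Cas9 nickase, and the wild-type cells were the isogenic control clone C9. Each group was 1 untransfected clone and each fraction was sequenced in 1 library, so effects of STAU1 loss, of the clone and of the library cannot be told apart, and no difference below has a replicate check or a p-value. A cytoplasmic library of each clone was sequenced beside the polysome libraries. A separate experiment in 8 libraries pulled down RNA with anti-FLAG from STAU1-KO cells transiently expressing STAU1-FLAG or, as control, FLAG-GFP, with inputs and 2 replicates per group. The purpose stated by the study's title was to define binding of STAU1 to alternative 3' ends and its relation to polysome association.

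The knockout polysome library held 3483937 reads and the wild-type polysome library 2799226, against 3232580 and 2904902 in the cytoplasm. The median member had 178 reads in knockout and 137 in wild-type polysomes. Reads were scaled to CPM (reads at a site per 1000000 reads of the library) with TMM. This method assumes that most sites are unchanged and gives 1 factor per library, here 1.01 for knockout and 0.99 for wild-type polysomes. Each log2 ratio of knockout to wild type is given with a 95% exact interval. These intervals cover counting error only. A ratio of library shares cannot tell a change in the number of cells contributing RNA from a change in RNA per cell.

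No gene names stand beside the sites in the deposited tables, and an annotation of their genome build (hg19) was not used here. Sites are therefore named by chromosome, strand and position, and marker genes of HEK293T and gene groups were not analysed here. The STAU1 transcript was likewise not identified by name, and the knockout label was not checked on it. In the pull-down experiment, 2 sites had at least 200 reads over the 4 STAU1-FLAG libraries and at most 1 read over the 4 FLAG-GFP libraries. They lay on the minus strand of chromosome 20 at 47732337 (508 reads against 0) and 47734604 (394 against 1). They were chosen by this contrast, and the origin of their reads was not tested. In the fraction table the second of these sites had 2 reads in wild-type polysomes and 0 in the other libraries. Within 5000 nt of them on the same strand, a site at 47729878 had 51 reads in knockout and 110 in wild-type polysomes (log2 ratio -1.45, interval -1.96 to -0.96), and 75 against 148 in the cytoplasm. A second site there, at 47730063, had 212 reads in knockout and 268 in wild-type polysomes (log2 -0.68, interval -0.95 to -0.42), with 200 against 430 in the cytoplasm. Both sites were lower in the knockout clone in both fractions, and neither was absent. Being lower was usual on this chromosome, where 157 of 175 tested sites lay below 0. The chromosome's median log2 was -0.40 in polysomes and -0.41 in the cytoplasm. Both sites lay below these medians, with cytoplasmic log2 ratios of -1.21 at 47729878 and -1.33 at 47730063. In polysomes 47729878 was the lowest of the 7 sites of the chromosome that were 2-fold lower. Whether the 2 sites exceed the chromosome's shift was not tested, so these values are no check of the knockout.

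The polysomal pools of the 2 clones were much alike. The median log2 ratio was -0.01, 90% of the sites lay between -0.66 and 0.66, and 97.7% of the 5650 sites lay within 2-fold. Sites at least 2-fold higher in knockout polysomes numbered 70 (1.24%) and sites at least 2-fold lower numbered 58 (1.03%). Centring each chromosome on its own median turned these counts into 65 higher and 34 lower. Many smaller differences were larger than counting error: the interval lay above 0 at 1186 sites and below 0 at 1144.

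**Figure D1:**
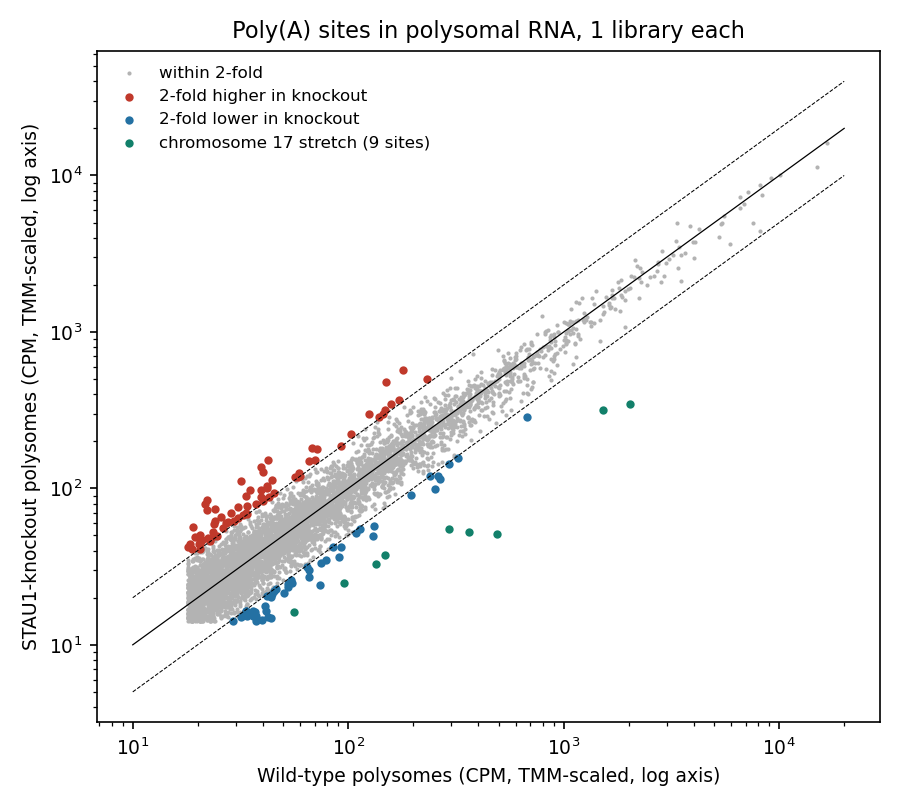
Each point is 1 of the 5650 poly(A) sites, with its wild-type polysomal CPM on the horizontal and its knockout polysomal CPM on the vertical log axis. The solid line marks equal values and the dashed lines 2-fold. The 70 sites that were 2-fold higher and the 58 that were 2-fold lower lie outside the dashed lines, and the 9 sites of a stretch of chromosome 17 lie farthest below.

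The spread between the clones did not fall steadily with depth, while counting error did. At sites with a mean of 50 to 100 reads the SD of the log2 ratio was 0.40 against 0.24 from counting alone. At means of 100 to 200, 200 to 500 and 500 to 1000 reads the SD was 0.43, 0.40 and 0.45. At the 470 sites with 1000 reads or more it was 0.36 against 0.048 from counting alone. A robust SD, which gives less weight to outlying sites, went from 0.40 to 0.26 between the same groups. Among those deep sites 3 were 2-fold higher and 3 were 2-fold lower. At lower depth the balance of higher and lower sites changed with the mean reads. Of 1615 sites with a mean of 50 to 100 reads, 2 were 2-fold higher and 21 lower. Of 1699 sites with 100 to 200 reads, 34 were higher and 17 lower. The read minimum in part sets this balance, since the knockout library was deeper. At the minimum of 50 reads, a 2-fold higher site therefore has a larger mean than a 2-fold lower one. Few 2-fold higher sites could have a mean under 100, and no conclusion is drawn from the balance. The 5 most read sites all stayed within 1.5-fold: the mitochondrial site 9991 on the plus strand had 56497 reads in knockout and 46311 in wild-type polysomes (log2 -0.06), and the second, chromosome 5 minus strand 81571885, had 39699 and 41400 (log2 -0.40). Just inside the read minimum, 599 sites with 50 to 59 reads in the lower library ran from -0.77 to 0.82 between the 5th and 95th percentiles. Just outside it, 851 sites with 40 to 49 reads ran from -0.78 to 0.81.

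Most sites that differed in polysomes differed the same way in the cytoplasm. Of the 70 higher sites, 58 had 50 reads in both cytoplasm libraries, and all 58 were higher there too, 28 of them by 2-fold. Of the 58 lower sites, 45 had those reads, 44 were lower there and 20 of them by 2-fold. The background in the cytoplasm was 114 of 5330 sites 2-fold higher (2.14%) and 86 lower (1.61%). The median log2 ratio of the higher sites was 1.14 in polysomes and 0.97 in the cytoplasm, and that of the lower sites -1.16 and -0.93. These sites were chosen by their polysomal ratio, which by itself tends to make the polysomal median the larger. No conclusion is drawn from the gap. Across the sites with both readings, the SD of the log2 ratio was 0.41 in polysomes and 0.47 in the cytoplasm. Over all 4766 sites with both readings, 70.6% had the same direction, with Pearson's r = 0.62 and Spearman's rho = 0.57. This correlation runs across sites, which are not independent, and both fractions came from the same 2 clones, so the cytoplasm is no replicate of the polysome comparison.

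**Figure D2:**
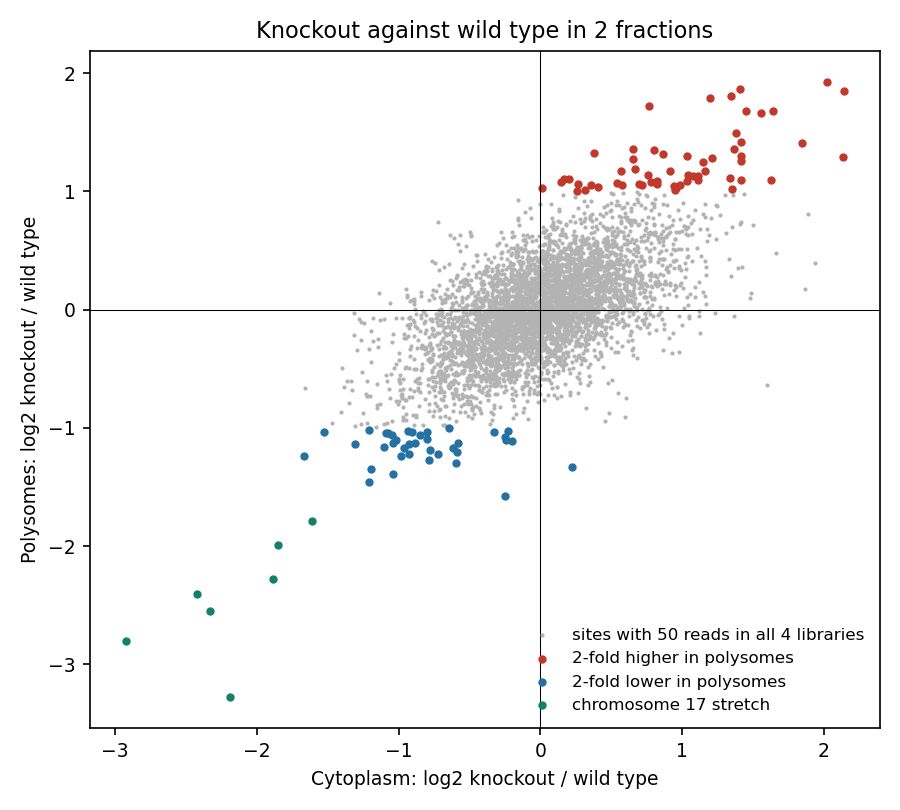
Each point is 1 of the 4766 sites with 50 reads in all 4 libraries, with its log2 ratio of knockout to wild type in the cytoplasm on the horizontal and in polysomes on the vertical axis. The 2-fold higher sites lie to the right of 0, and the 2-fold lower sites lie to the left with 1 exception.

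The sites that stood highest in knockout polysomes were spread over several chromosomes. At position 57319137 on the minus strand of chromosome 11 there were 534 reads (152 CPM) in knockout and 117 (42.2 CPM) in wild-type polysomes, a log2 ratio of 1.85 (interval 1.55 to 2.15). The cytoplasm held 485 and 94 reads there. Position 24300305 on the minus strand of chromosome 2 had the highest ratio of all, with 295 reads (83.8 CPM) against 61 (22.0 CPM), a log2 of 1.93 (interval 1.53 to 2.35), and 333 against 70 in the cytoplasm. Both sites were thus 3-fold to 4-fold higher in polysomes and at least as far apart in the cytoplasm. A more abundant site, 77157608 on the minus strand of chromosome 10, had 1687 reads (479 CPM) against 415 (150 CPM), a log2 of 1.68 (interval 1.52 to 1.84), and 1492 against 408 in the cytoplasm. The 12 highest sites, ranked by the lower end of the interval, ran from 2.67-fold to 3.81-fold, and all 12 were higher in the cytoplasm, from log2 0.76 to 2.14.

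Some of these sites lay near others. Of the 67 nuclear sites that were 2-fold higher, 10 lay within 100000 nt of another, in 4 neighbourhoods, and of the 57 that were 2-fold lower, 15 did so, in 6 neighbourhoods. Whether these shares exceed those of other tested sites was not tested. On the minus strand of chromosome 17, between 46620021 and 46673114, 4 sites were tested and 3 were 2-fold higher: 356 against 116 reads at 46620021 (log2 1.27), 390 against 88 at 46652873 (1.80) and 641 against 189 at 46673114 (1.42). The remaining one, at 46626233, had 142 against 58 reads (0.95). All 4 were therefore higher in knockout polysomes. On chromosome 7, between 27180677 and 27228912, 6 sites were tested and 3 were 2-fold higher. The most read of them, 27210226 on the minus strand, had 2012 reads (572 CPM) against 495 (179 CPM), a log2 of 1.68 (interval 1.54 to 1.82), and 1787 against 558 in the cytoplasm. The site at 27180677 had 346 against 109 reads (1.32), and the plus-strand site at 27228912 had 398 against 123 (1.35). The neighbourhood was not uniform, since 27193340 had 69 reads in knockout and 77 in wild-type polysomes (log2 -0.50).

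The largest decreases lay in 1 stretch of chromosome 17, which held 9 of the 58 sites that were 2-fold lower. All 9 consecutive tested sites from 17088870 to 18148155, a span of 1059286 nt on both strands, were lower by 3.45-fold to 9.68-fold, and only 1 other tested site in the genome was more than 3-fold lower. The site at 17408879 on the minus strand had 179 reads (50.9 CPM) in knockout and 1365 (493 CPM) in wild-type polysomes, a log2 of -3.28 (interval -3.51 to -3.05). The most read site, 17150151 on the minus strand, had 1222 reads (347 CPM) against 5614 (2026 CPM), a log2 of -2.54. On the plus strand, 18113265 had 1112 against 4234 reads, a log2 of -2.27. Both strands were thus lower in the knockout clone. The median of the 9 log2 ratios was -2.27 in polysomes and -2.33 in the cytoplasm. The other 316 listed sites of the span, each too shallow for the read minimum, summed to 465 reads in knockout and 1808 in wild-type polysomes (log2 -2.30), as far apart as the 9 members. The tested site before the stretch, at 16345330, had a log2 of 0.18, and the one after it, at 18231369, had -0.65. The boundaries of the stretch were chosen after these values were seen.

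**Figure D3:**
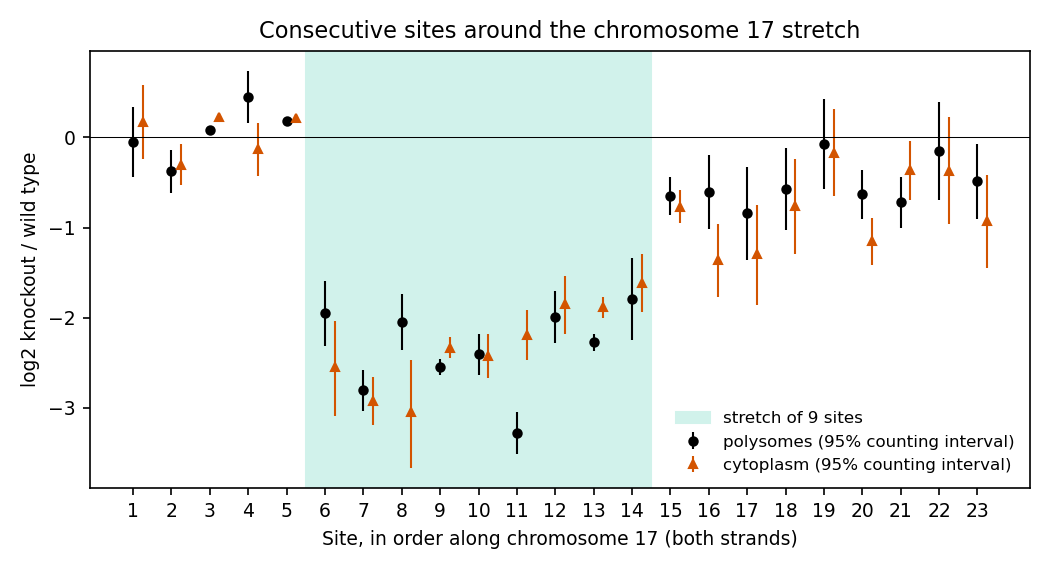
Log2 ratio of knockout to wild type (vertical axis) of consecutive tested sites on chromosome 17, in order of position (horizontal axis), in polysomes (circles) and in the cytoplasm (triangles), with bars for the 95% counting interval. The 9 shaded sites lie below the neighbouring sites in both fractions, with polysomal values from -3.28 to -1.79.

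Lower sites outside this stretch were less far from wild type. At 5239984 on the plus strand of chromosome 17, 85 reads in knockout and 204 in wild-type polysomes gave a log2 of -1.61 (interval -1.99 to -1.24). At 9642824 on the plus strand of chromosome 1, 348 against 697 reads gave -1.35 (interval -1.54 to -1.16). At 23704513 on the plus strand of chromosome X, 1008 against 1873 reads gave -1.24 (interval -1.35 to -1.13). The cytoplasmic log2 ratios of these 3 sites were -2.21, -1.19 and -1.67, all in the same direction. A neighbourhood on chromosome 20, from 17922246 to 17948322, had all 3 of its tested sites 2-fold lower, with a median log2 of -1.17 in polysomes and -0.96 in the cytoplasm.

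Whole chromosomes also stood apart. The median log2 ratio was -0.28 on chromosome 1 (592 sites), -0.40 on chromosome 20 (175 sites), -0.28 on chromosome 21 (58 sites) and -0.46 on chromosome X (171 sites), while the medians of the other 19 chromosomes lay between -0.05 and 0.16. The shift covered most sites of each: 79.4% of sites lay below 0 on chromosome 1, 89.7% on chromosome 20, 82.8% on chromosome 21 and 82.5% on chromosome X. The cytoplasmic medians of these chromosomes were -0.33, -0.41, -0.29 and -0.37. The 4 chromosomes held 996 sites, with 30 of the 2-fold lower sites and 2 of the higher ones. The other 4595 nuclear sites held 27 lower and 65 higher ones. Chromosome 19 went the other way, with 13 higher and 0 lower sites and a median of 0.12. It was not alone in this, as chromosomes 12, 15 and 18 had medians of 0.11, 0.12 and 0.16. These also had 0 lower sites, with 3, 3 and 1 higher ones. In windows of 5000000 nt with at least 8 sites, the median lay below 0 in 111 of 241 windows over all chromosomes. It did so in 29 of 31 windows on chromosome 1, in 8 of 8 on chromosome 20 and in 2 of 2 on chromosome 21. The counts were 7 of 7 on chromosome X and 0 of 10 on chromosome 19. Chromosome 13 had 5 of 5 windows below 0 as well, though the median over its sites was 0.02. The 4 chromosomes were singled out after their values were seen. Whole-chromosome shifts and genotype cannot be told apart from the 2 clones themselves.

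**Figure D4:**
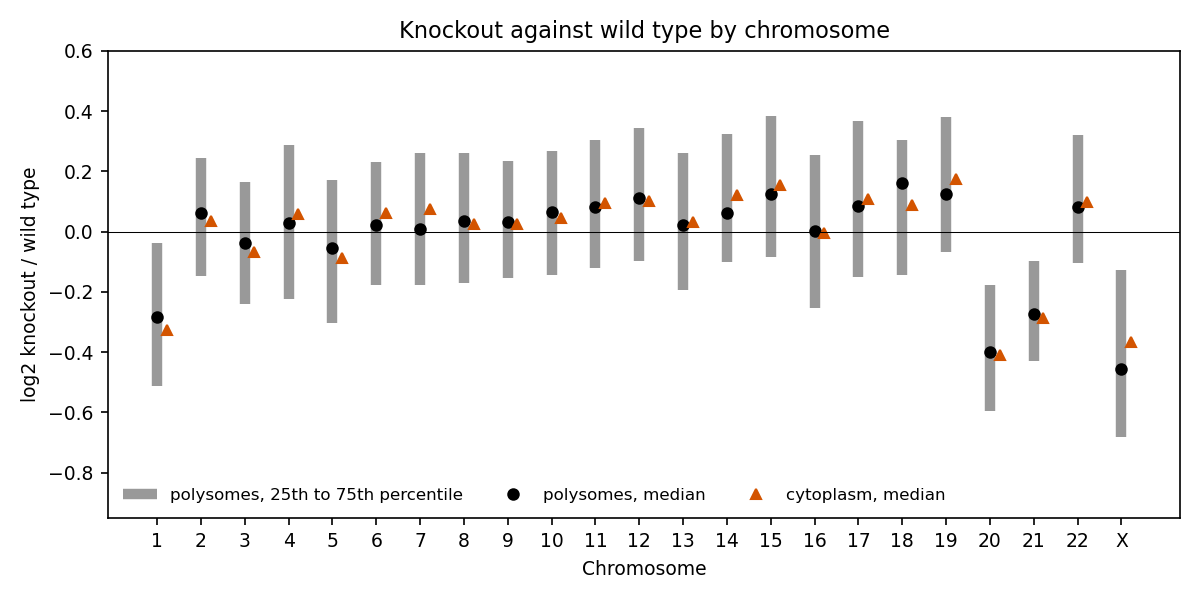
Log2 ratio of knockout to wild type (vertical axis) on each nuclear chromosome (horizontal axis), as the median over sites in polysomes (circles, with bars from the 25th to the 75th percentile) and in the cytoplasm (triangles). Chromosomes 1, 20, 21 and X lie below -0.2 in both fractions, and the others lie between -0.09 and 0.18.

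Few sites differed in polysomes while staying near wild type in the cytoplasm. Of the 103 sites that were 2-fold apart in polysomes and measured in the cytoplasm, 21 were within 1.5-fold there, 13 of them higher and 8 lower. At 1397093 on the minus strand of chromosome 19, polysomes held 778 reads in knockout and 285 in wild type (log2 1.10), and the cytoplasmic log2 was 0.17. At 27180677 on the minus strand of chromosome 7, named above, the cytoplasmic log2 was 0.38 beside 1.32 in polysomes. At 83685183 on the minus strand of chromosome 15, 163 against 63 reads gave 1.03, with 0.01 in the cytoplasm. Among the lower sites, 167760058 on the plus strand of chromosome 1 had 320 reads in knockout and 540 in wild-type polysomes (log2 -1.10), and a cytoplasmic log2 of -0.24. A single site had the opposite sign in the cytoplasm, 134363472 on the minus strand of chromosome 5. It had 58 against 115 reads in polysomes (log2 -1.33) and 78 against 57 in the cytoplasm (0.23). Its cytoplasmic interval, -0.29 to 0.74, included 0, so an opposite direction was not shown. These differences between fractions have 1 library on each side and were not tested.

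Mitochondrial transcripts, which are made from both strands of a small circular genome and translated inside the organelle, took 4.41% of the reads in knockout and 5.26% in wild-type polysomes. In the cytoplasm they took 13.9% and 18.3%. That cytoplasmic difference lay mostly on the minus strand, with 3.98% in knockout and 7.90% in wild type, against 9.93% and 10.4% on the plus strand. The minus-strand site at 219 alone had 87258 reads in knockout and 188306 in wild-type cytoplasm (log2 -1.34). In polysomes its log2 was -0.60. The 41 plus-strand sites had a median log2 of -0.37 in polysomes, with 31 below 0, and 0.03 in the cytoplasm. The site at 9206 had 15601 reads in knockout and 22502 in wild-type polysomes (log2 -0.87), and the site at 12138 had 7467 and 9707 (-0.72). Against that trend the site at 5900 had 469 and 195 reads (0.92). The cytoplasmic log2 ratios at 9206, 12138 and 5900 were -0.42, 0.21 and 0.54. Other deeply read plus-strand sites went both ways in the cytoplasm: 15888 had -0.49, 5512 had -0.30 and 9991 had -0.16, while 14746 had 0.18. The plus-strand sites were thus mostly lower in knockout polysomes, but not uniformly.

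The 17 minus-strand sites of the mitochondrial genome fell apart by position, a boundary chosen after seeing the values. The 8 sites in the first 400 nt had a median of -0.35 in polysomes and -0.64 in the cytoplasm. The 9 sites beyond it had a median of 0.83 in polysomes and 0.27 in the cytoplasm, and together 2902 reads in knockout against 1365 in wild-type polysomes. The highest was 14744, with 256 reads against 61 (log2 1.72, interval 1.32 to 2.15) in polysomes and 845 against 425 in the cytoplasm. All 3 of the 2-fold differences beyond the boundary were higher in knockout.

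Sites with a close neighbour were slightly lower than sites without one. Sites on the same strand less than 5000 nt apart were joined into runs. The 4088 sites alone in their run had a median log2 of 0.02, the 673 most proximal sites -0.09, the 157 middle sites -0.07 and the 673 most distal sites -0.04. Values below 0 were found at 1946 of the 4088, 420 of the 673 most proximal, 90 of the 157 and 364 of the 673 most distal sites. The counts of 2-fold higher and lower sites were 56 and 44, 4 and 6, 0 and 1, and 7 and 6 in the same order.

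The choice between neighbouring ends was compared in 688 pairs of adjacent sites on the same strand, 100 to 5000 nt apart, built from 1262 sites of which 114 were in 2 pairs. The distal share, the reads of the distal site over those of both, had a median of 51.0% in knockout and 50.7% in wild-type polysomes. The median change within a pair was 0.50 percentage points, and the middle 90% of pairs ran from -8.48 to 9.45 points. The share was higher in knockout in 389 pairs and lower in 298. The odds of the distal site were 2-fold higher in 5 pairs (0.727%) and 2-fold lower in 5 (0.727%). The interval of the odds ratio lay above 0 on the log2 scale in 111 pairs and below 0 in 62. The SD of the log2 odds ratio was 0.40, against 0.25 from counting alone.

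**Figure D5:**
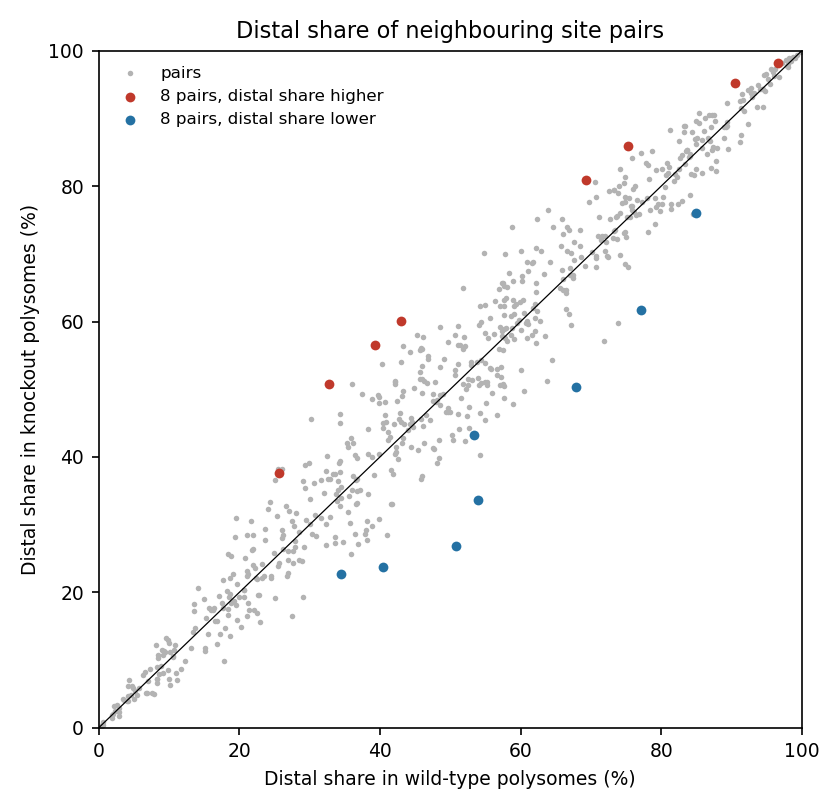
Each point is 1 of the 688 site pairs, with its distal share in wild-type polysomes (horizontal axis, percent) and in knockout polysomes (vertical axis, percent); the line marks equal shares. Points lie along the line, and the 8 coloured pairs above it and the 8 below it are those whose counting interval lies farthest from no change.

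Among pairs whose distal share was higher, that on the minus strand of chromosome 19 with the proximal site at 19292686 and the distal site at 19287719 had 163 proximal and 212 distal reads in knockout polysomes and 216 and 140 in wild-type polysomes. Its distal share was 56.5% against 39.3%, a log2 odds ratio of 1.00 (interval 0.58 to 1.43), and in the cytoplasm 60.0% against 31.4%. This pair moved the same way and farther in the cytoplasm. On the plus strand of chromosome 12, the pair 120899389 and 120901549 had a distal share of 50.8% in knockout and 32.8% in wild-type polysomes (log2 odds ratio 1.08), with 0.53 in the cytoplasm. On the plus strand of chromosome 19, the pair 19617787 and 19619740 had 80.9% against 69.3% (0.91), but -0.27 in the cytoplasm.

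The distal share was lowest against wild type, by the counting interval, on the minus strand of chromosome 11, in the pair with the proximal site at 65487156 and the distal site at 65485146. It had 1046 proximal and 383 distal reads in knockout polysomes and 347 and 359 in wild-type polysomes. The distal share was 26.8% against 50.9%, a log2 odds ratio of -1.50 (interval -1.77 to -1.23), and in the cytoplasm 33.0% against 56.9%. The proximal reads differed more between the libraries than the distal reads did. On the plus strand of chromosome 12, the pair 54744659 and 54745627 had 61.7% against 77.2% (-1.07), with -1.32 in the cytoplasm. On the plus strand of chromosome 17, the deeply read pair 39847250 and 39847893 had 43.3% against 53.4% in polysomes (log2 odds ratio -0.59, interval -0.72 to -0.45) and 36.0% against 35.2% in the cytoplasm.

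In the 471 pairs also read in the cytoplasm, the median change of the distal share was 0.56 points there and 0.33 points in polysomes. In the cytoplasm 13 pairs had 2-fold higher distal odds (2.76%) and 7 had 2-fold lower odds (1.49%). Across these pairs the log2 odds ratios of the fractions had r = 0.35 and rho = 0.31, given as a description since both fractions share the clones. By distance, the median change in polysomes was 0.17 points in 261 pairs 100 to 499 nt apart, -0.25 in 123 pairs 500 to 999 nt apart, 1.35 in 144 pairs 1000 to 1999 nt apart, and 0.67 in 160 pairs at larger distances. The share was higher in knockout in 137, 59, 98 and 95 pairs of these groups, in the same order.

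Sites enriched by the STAU1-FLAG pull-down had polysomal ratios close to those of all matched sites. Enrichment was the pull-down over input with STAU1-FLAG, relative to the same with FLAG-GFP, and edgeR's quasi-likelihood test with Benjamini-Hochberg adjustment called 179 of 33744 sites higher (0.53%) and 53 lower (0.157%). Of the polysomal sites, 5542 matched a tested pull-down site within 24 nt. The 147 matched sites with higher enrichment had a median polysomal log2 ratio of -0.01, with 73 above 0, 74 below, 2 of them 2-fold higher and 1 of them 2-fold lower. Over all 5542 the median was -0.0047, with 2743 above 0, 2799 below, and 67 and 56 beyond 2-fold. The 23 sites with lower enrichment had a median of -0.09, with 6 above 0 and 17 below. The lower list by DESeq2 was longer, and its 183 matched sites had a median of -0.0068. Across all matched sites the enrichment and the polysomal log2 ratio had rho = 0.02. In 5 groups of 1108 or 1109 sites, ordered from the least to the most enriched, the 2-fold higher sites numbered 12, 14, 12, 16 and 13 and the 2-fold lower sites 7, 14, 5, 13 and 17. The number of enriched sites depended on single pull-down libraries. Without FLAG-GFP pull-down replicate 1 it was 17 higher and 5 lower, without replicate 2 of that group 43 and 7, without STAU1-FLAG input replicate 1 it was 60 and 24, without STAU1-FLAG input replicate 2 it was 390 and 111, and without FLAG-GFP input replicate 1 it was 97 and 31. The median polysomal log2 ratio of the higher list was 0.11 in the first of these, over 14 sites.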

How the data were processed

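Poly(A)+ RNA was sequenced by 3'READS+. The submitters' processing notes name the aligner STAR and the build hg19; for versions and site calling, nothing is given in the sources used here. The deposited tables hold raw read counts per poly(A) site, by chromosome, strand and position. The counts carry no molecular identifiers, so intervals cover counting error only.

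The polysome comparison used 1 library per clone. Sites with 50 reads in both were scaled by TMM (edgeR 4.0.16, R 4.3.3), and log2 ratios were given exact 95% conditional binomial intervals; called means past 2-fold. Intervals of log2 odds ratios in pairs used a normal approximation. Most named sites and pairs were drawn from the 12 sites and 8 pairs each way whose interval lay farthest from 0. Others came from the 5 most read sites and from sites 2-fold apart in polysomes but within 1.5-fold in the cytoplasm. Not all members of these groups are named, and those named were not always the highest ranked. The neighbourhoods, the chromosome 17 stretch, the chromosomes singled out, the mitochondrial boundary and the chromosome 20 sites were chosen after values were seen.

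Pull-down enrichment was fitted in edgeR on 8 libraries (quasi-likelihood, adjusted p under 0.05), with DESeq2 1.42.0 as an alternative. Nothing in the labels says that the replicates came from separate cultures, so p-values measure the spread between these libraries only. Scripts were tested on simulated data. Alternatives changed scaling, read minimum, pair rules and libraries. The members and lists were chosen with earlier results of these data known. Gene lists were not used, since the annotation at hand was of another build.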

Additional observations from a re-analysis of the deposited data

Results flagged for a closer look

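Some sites were read in 1 clone only and so fell outside the read minimum. On chromosome 11, plus strand 46185093, knockout polysomes held 191 reads and wild-type polysomes 0, with 170 and 0 in the cytoplasm. On chromosome 5, minus strand 180256962, wild-type polysomes held 51 reads and knockout polysomes 0, with 25 and 0 in the cytoplasm. Each drew attention as a signal in data outside the comparison of sites.

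Other results drew attention because their values in polysomes and in the cytoplasm had opposite signs. These differences were not tested. The site on chromosome 5, minus strand 134363472, had a log2 ratio of -1.33 in polysomes and 0.23 in the cytoplasm. The cytoplasmic interval ran from -0.29 to 0.74 and so included 0. The mitochondrial plus-strand sites had a median of -0.37 in polysomes and 0.03 in the cytoplasm, and the minus-strand sites 0.09 and -0.37. The plus-strand cytoplasmic value was near 0, with 21 sites above 0 and 18 below. Split at 400 nt, each part of the minus strand had the same sign in both fractions. The medians were -0.35 in polysomes and -0.64 in the cytoplasm within the first 400 nt, and 0.83 and 0.27 beyond it. The pair on the minus strand of chromosome 1 with sites at 151846533 and 151846060 had a log2 odds ratio of the distal site of -1.12 in polysomes and 0.20 in the cytoplasm.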

How the results depend on the processing

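With 1 library per clone, no polysomal difference could be set against replicate spread, and at 50 reads counting error alone is a sizeable part of a 2-fold difference. The counts of 70 higher and 58 lower sites followed the read minimum: 188 and 171 of 9789 sites with a minimum of 20 reads, 32 and 25 of 3531 with 100 reads, and 142 and 101 of 6409 with a mean of 50 reads. Centring each chromosome, chosen after seeing the data, left 34 lower sites; library totals, size factors by relative log expression, nuclear totals, thinning to the smaller total and leaving out the chromosome 17 stretch kept both counts within 1.5 times. The 3 scalings move all sites by 1 constant, at most 0.029. This is too small to change a direction or call of the 24 sites ranked highest or lowest by interval. For these sites the scalings are no check. The 102 of 103 sites with the same direction in the cytoplasm made 99.0%.

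Pairs past 2-fold (5 each way) were 3 and 3 with a maximum distance of 2000 nt, 8 lower with 10000 nt, 2 higher with the 2 most read sites of a run, 3 higher with pairs sharing no site, 39 and 40 of 1801 with 20 reads, 2 and 2 of 292 with 100 reads, and 3 higher after thinning. The median change of the distal share was 0.10 points with 100 reads. Fewer or more pairs entered each of these.

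The median polysomal log2 ratio of the pull-down lists ranged, leaving out 1 pull-down library at a time, from -0.0148 to 0.11 for the higher list and from -0.11 to -0.08 for the lower list. DESeq2, which called 425 higher and 316 lower, gave -0.0068 over 183 members of the lower list; the cause was not tested. With the replicate number as a block (a replicate block) the calls were 389 and 123, and the medians were 0.0075 and -0.0839. The numbers are not shown to pair the libraries, as correlations of replicate differences between groups lay between -0.02 and 0.02. Size factors by relative log expression gave 154 and 96 calls and no filter on low counts 307 and 48. Alternatives on gene lists were not run, for want of an annotation of the build.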

Other observations

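Beside the 5650 sites with 50 reads in both polysome libraries, 1503 sites reached 50 reads in 1 of them only, 1305 in the knockout library and 198 in the wild-type library, which held 3483937 and 2799226 reads in all. Among the 1503, 177 were 2-fold higher and 69 were 2-fold lower in knockout polysomes, and 8 had at most 10 reads in the other library. The read minimum chose these sites by their value in 1 library, so their direction is a description.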
